A study of Mus musculus with 4 samples.

Results

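The genes described are those of the EGR and AP-1 immediate early transcription factors, in mesenchymal stem cells (MSCs) from mouse bone marrow, a stromal cell type able to give rise to bone, fat and cartilage. They were taken as the probe sets whose single platform symbol was one of 10 listed genes. Of these, 9 were measured (Egr1, Egr2, Egr3, Fos, Fosb, Fosl2, Jun, Junb and Jund), out of 22180 genes with a probe set of their own. Fosl1 was not measured, because its 1 probe set is shared with a neighbouring symbol. Jund had 2 probe sets and each of the others 1. All 9 lay among the 13308 genes with the highest mean level, the upper 60%, which had means of at least 4.51.

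The 4 groups had 1 Affymetrix array each: Snail1-KO cells with TGF-b1 for 2 h, Snail1-KO cells left untreated, Snail1-WT cells with TGF-b1 for 2 h, and Snail1-WT cells left untreated. Snail1-KO cells lack the zinc finger repressor Snail1, encoded by Snai1, and TGF-b1 is a cytokine that signals through SMAD proteins and MAP kinases. Not given in the sources used here: the strain, the age and number of animals, the dose of TGF-b1, how Snail1 was removed, and whether cultures were separate. With 1 array per group no difference has a replicate check, so no p-value is given, and the number of arrays limits the precision.

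EGR factors are zinc finger proteins that bind GC-rich sites, and the NAB proteins repress them. FOS and JUN proteins are leucine zipper partners that together form AP-1. FOS proteins need a JUN partner to bind DNA, while JUN proteins can also pair with each other. Most of these genes are immediate early genes. A growth factor switches them on within minutes, largely through MAP kinases that act on serum response factor and its ETS-family partners at CArG boxes, and the RNA then decays quickly. In mesenchymal cells they are known as regulators of matrix, protease and bone genes, and Junb is known as a gene that SMAD proteins activate.

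Values are log2 values made by the authors with RMA, and 1 unit is a factor of 2. Array medians over all 41345 probe sets lay between 4.58 and 4.63. Snai1 measured 5.34 in Snail1-KO cells with TGF-b1 and 5.09 in untreated Snail1-KO cells, against 7.63 in Snail1-WT cells with TGF-b1 and 6.69 in untreated Snail1-WT cells. It was thus lower in both Snail1-KO arrays than in either Snail1-WT array, as labelled. The position of its probes against the deleted part is unknown here. Of 14 measured mesenchymal markers, 11 lay above the upper quartile of all probe sets on every array, among them Pdgfra, Pdgfrb, Eng and Vcam1. Lepr, Nt5e and Thy1 did not, with Lepr between 2.86 and 3.20. Of 8 endothelial and 7 epithelial markers none lay above that quartile on any array. Of 12 haematopoietic markers 1, Cd14, did, on the untreated Snail1-KO array alone. As a yardstick for single genes, the robust SD of the difference between the responses of both genotypes was taken among the 500 kept genes nearest in mean level, and divided by the square root of 2 for a difference between 2 arrays. It holds true differences of the responses as well as noise. Anything that both arrays of a genotype share cancels out of it, so beside a genotype difference it leaves out the spread between cultures.

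After 2 h of TGF-b1, Egr2 and Junb were at least 2-fold higher in both genotypes, and Egr1 was so in Snail1-KO cells alone. Of the 9 genes, 3 were at least 2-fold higher in the response of Snail1-KO cells (Egr1, Egr2 and Junb) and 2 in that of Snail1-WT cells (Egr2 and Junb). Among all 13308 genes kept, 0.999% were at least 2-fold higher in Snail1-KO cells and 0.714% in Snail1-WT cells. None of the 9 was 2-fold lower in either response, where 0.308% of all genes in Snail1-KO cells and 0.271% in Snail1-WT cells were. The median response of the 9 genes was 0.53 in Snail1-KO cells and 0.22 in Snail1-WT cells, beside -0.02 and -0.03 over all genes kept. In cultures like these, more RNA per cell and more cells that express a gene cannot be told apart.

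Egr2, also called Krox20 and known for its part in hindbrain patterning and myelination, had the largest response of the 9. It measured 8.38 with TGF-b1 and 5.53 without in Snail1-KO cells, against 8.94 with and 6.31 without in Snail1-WT cells. Both treated arrays thus lay above both untreated ones. The response was 2.85 in Snail1-KO cells, 7.20-fold, and 2.64 in Snail1-WT cells, 6.21-fold. It ranked 5th among the increases of all genes kept in Snail1-KO cells and 2nd in Snail1-WT cells. The yardstick for a difference between 2 arrays was 0.14 at its level, so both responses were many times larger.

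Junb, whose protein is a JUN partner with weaker activating power than Jun at many AP-1 sites, came next among the genes that were higher in both genotypes. It measured 7.95 with TGF-b1 and 6.61 without in Snail1-KO cells, against 8.05 with and 6.92 without in Snail1-WT cells. The response was 1.33 in Snail1-KO cells, 2.52-fold, and 1.13 in Snail1-WT cells, 2.19-fold, beside a yardstick of 0.14. Its ranks among the increases were 61 and 73. As with Egr2, treated and untreated arrays did not overlap.

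The promoters of Egr2 and Junb are shown because these are the genes at least 2-fold higher after TGF-b1 in both genotypes. RefSeq windows of build GRCm38.p6, from 250 bases before to 50 bases after an annotated start, were matched for 7 of the 9 genes, 11 windows in all, and not for Egr1 and Egr3. Egr2 had 5 windows, of which the second and the fifth, both on the plus strand, are printed 5′ to 3′ with CArG boxes in capitals. They lie at chr10:67537316-67537615 and chr10:67537680-67537979. The Junb window lies on the minus strand at chr8:84978699-84978998, and its capitals mark a TATA box.
Egr2 window 2: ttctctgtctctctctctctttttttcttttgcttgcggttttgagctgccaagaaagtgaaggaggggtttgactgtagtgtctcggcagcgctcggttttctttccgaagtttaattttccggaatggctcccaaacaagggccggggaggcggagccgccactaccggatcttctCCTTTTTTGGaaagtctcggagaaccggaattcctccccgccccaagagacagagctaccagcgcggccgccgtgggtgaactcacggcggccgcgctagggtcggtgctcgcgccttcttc
Egr2 window 5: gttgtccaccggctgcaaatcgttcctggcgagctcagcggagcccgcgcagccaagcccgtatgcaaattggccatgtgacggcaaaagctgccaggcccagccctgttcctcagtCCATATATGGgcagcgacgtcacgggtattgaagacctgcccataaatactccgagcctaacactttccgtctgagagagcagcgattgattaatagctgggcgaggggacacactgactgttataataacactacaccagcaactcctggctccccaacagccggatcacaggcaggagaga
Junb: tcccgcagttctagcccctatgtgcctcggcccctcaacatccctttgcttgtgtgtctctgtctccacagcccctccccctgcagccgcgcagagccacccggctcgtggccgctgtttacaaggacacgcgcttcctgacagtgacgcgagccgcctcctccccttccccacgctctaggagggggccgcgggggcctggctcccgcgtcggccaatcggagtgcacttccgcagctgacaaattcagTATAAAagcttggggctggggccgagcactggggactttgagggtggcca

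The motif search covered the promoter windows only, so a site farther from an annotated start would be missed. Within its windows, Egr2 was the only one of the 7 genes with a CArG box, the element that serum response factor binds. Whether the other genes have a CArG box outside their windows was not tested. The box of the second Egr2 window began 72 bases before the annotated start and that of the fifth 133 bases before it. The third and the fourth windows overlap the fifth and hold its box too. On either strand, a CArG box was present in 1.63% of all 32851 promoter windows of the table. The AP-1 site TGANTCA (7.81% of all windows), the cyclic AMP response element TGACGTCA (1.79%) and the SMAD box GTCTAGAC (0.213%) matched in none of the 11 windows. The EGR site GCGNGGGCG (5.55%) matched in those of Fosb and Fosl2, and the TATA box TATAAA (13.6%) in those of Fos and Junb. In Junb the TATA box began at the annotated start itself. Matches of different motifs lay in different genes, so none overlapped. These matches describe letters within a short window and say nothing of binding.

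**Figure D1:**
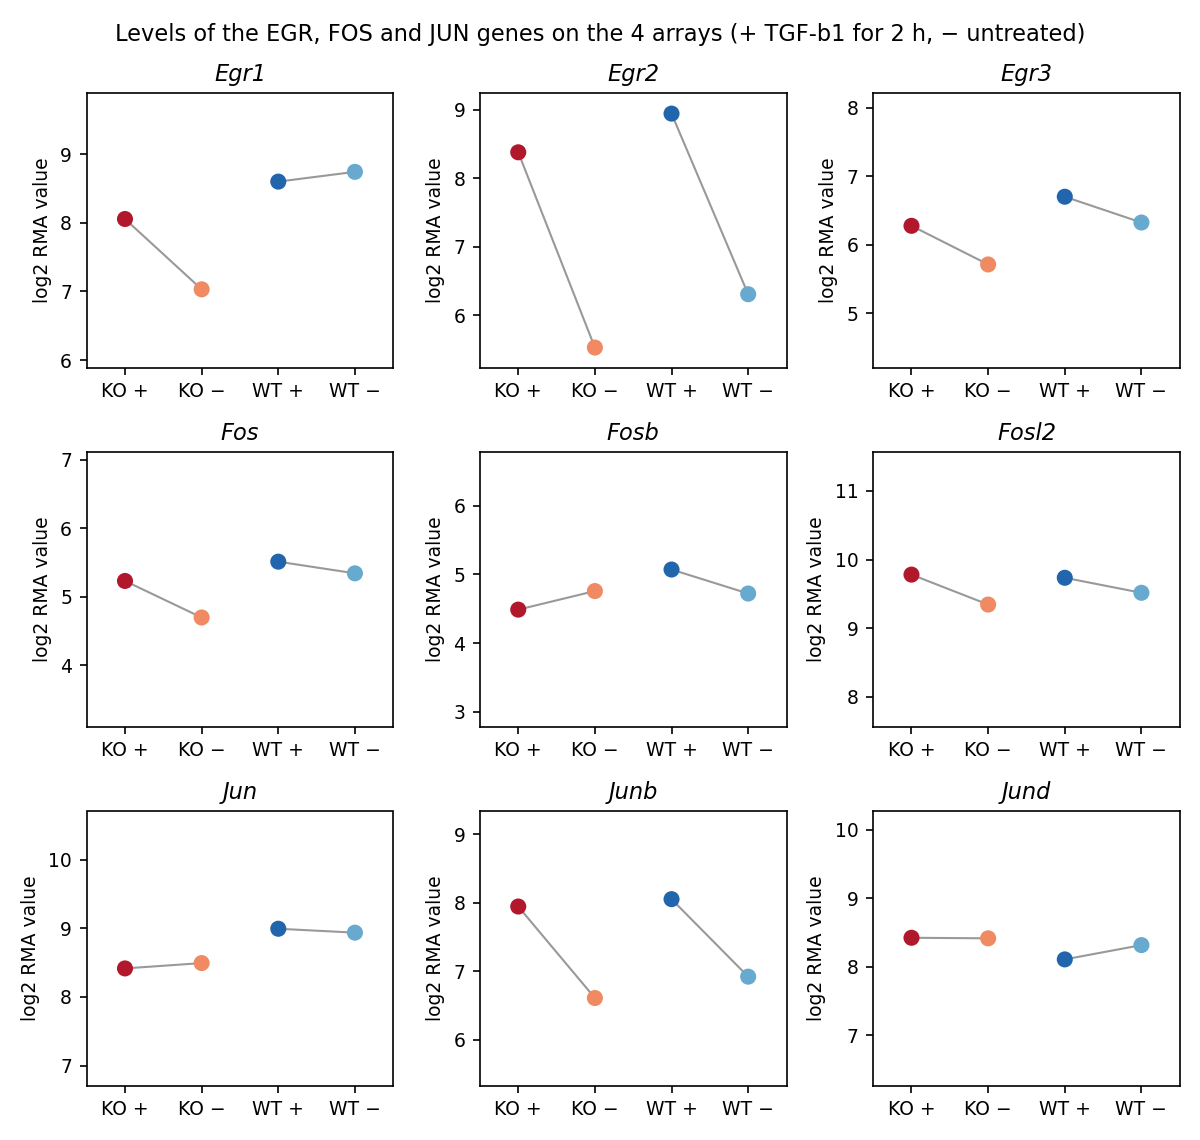
Log2 RMA values (vertical axes, each spanning 4 log2 units) of the 9 genes on the 4 arrays, with Snail1-KO left of Snail1-WT cells and TGF-b1 for 2 h (+) left of untreated (−); each point is 1 array and lines join the arrays of a genotype. Egr2 and Junb stand higher on both treated arrays, and Egr1 stands lowest on the untreated Snail1-KO array, at 7.03.

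Of the other EGR genes, Egr1 differed more between the genotypes than any other of the 9 without TGF-b1, and its responses differed the most, but with TGF-b1 the genotype differences of Fosb, Jun and Egr2 were larger. Egr1, the best known growth factor responder of the family, measured 8.06 with TGF-b1 and 7.03 without in Snail1-KO cells, against 8.60 with and 8.75 without in Snail1-WT cells. The untreated Snail1-KO array was low and the other 3 were closer together. The response was 1.03 in Snail1-KO cells, 2.04-fold, and -0.14 in Snail1-WT cells, beside a yardstick of 0.11. The Snail1-KO response was therefore just past 2-fold, and it ranked 123 among the increases. Egr3, a paralog needed for muscle spindles in mice, measured 6.28 with TGF-b1 and 5.71 without in Snail1-KO cells, against 6.70 with and 6.33 without in Snail1-WT cells. Its responses of 0.56 and 0.38 had the same sign, were under 2-fold, and exceeded a yardstick of 0.18.

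The FOS genes were under 2-fold in both responses. Fos, the founding partner of Jun in AP-1, measured 5.23 with TGF-b1 and 4.70 without in Snail1-KO cells, against 5.51 with and 5.34 without in Snail1-WT cells. Its response was 0.53 in Snail1-KO cells and 0.17 in Snail1-WT cells, beside a yardstick of 0.21, so that of Snail1-WT cells lay within it. Fosl2, which encodes Fra-2 and whose forced expression causes fibrosis in mice, measured 9.78 with TGF-b1 and 9.34 without in Snail1-KO cells, against 9.73 with and 9.51 without in Snail1-WT cells. Responses of 0.44 and 0.22 exceeded its yardstick of 0.08, and treated arrays lay above untreated ones in both genotypes. Fosb, a FOS gene best studied in neurons and bone, measured 4.49 with TGF-b1 and 4.76 without in Snail1-KO cells, against 5.07 with and 4.72 without in Snail1-WT cells. These values lay close to the medians of all probe sets, and no detection calls were used here. Its responses were -0.27 in Snail1-KO cells and 0.35 in Snail1-WT cells, with a yardstick of 0.22.

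Jun and Jund, unlike Junb, were under 2-fold in both responses. Jun, the AP-1 subunit that c-Jun N-terminal kinases activate, measured 8.42 with TGF-b1 and 8.49 without in Snail1-KO cells, against 8.995 with and 8.94 without in Snail1-WT cells. Its responses of -0.08 and 0.06 lay within a yardstick of 0.09, and the arrays split by genotype instead. Jund, the JUN gene that most cells express steadily, measured 8.43 with TGF-b1 and 8.42 without in Snail1-KO cells, against 8.11 with and 8.32 without in Snail1-WT cells. Its responses were 0.01 in Snail1-KO cells and -0.21 in Snail1-WT cells, beside 0.11. The second, dimmer Jund probe set measured 6.25 with TGF-b1 and 6.50 without in Snail1-KO cells, against 6.44 with and 6.67 without in Snail1-WT cells. It gave responses of -0.25 and -0.23, so the probe sets disagreed on Snail1-KO cells.

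**Figure D2:**
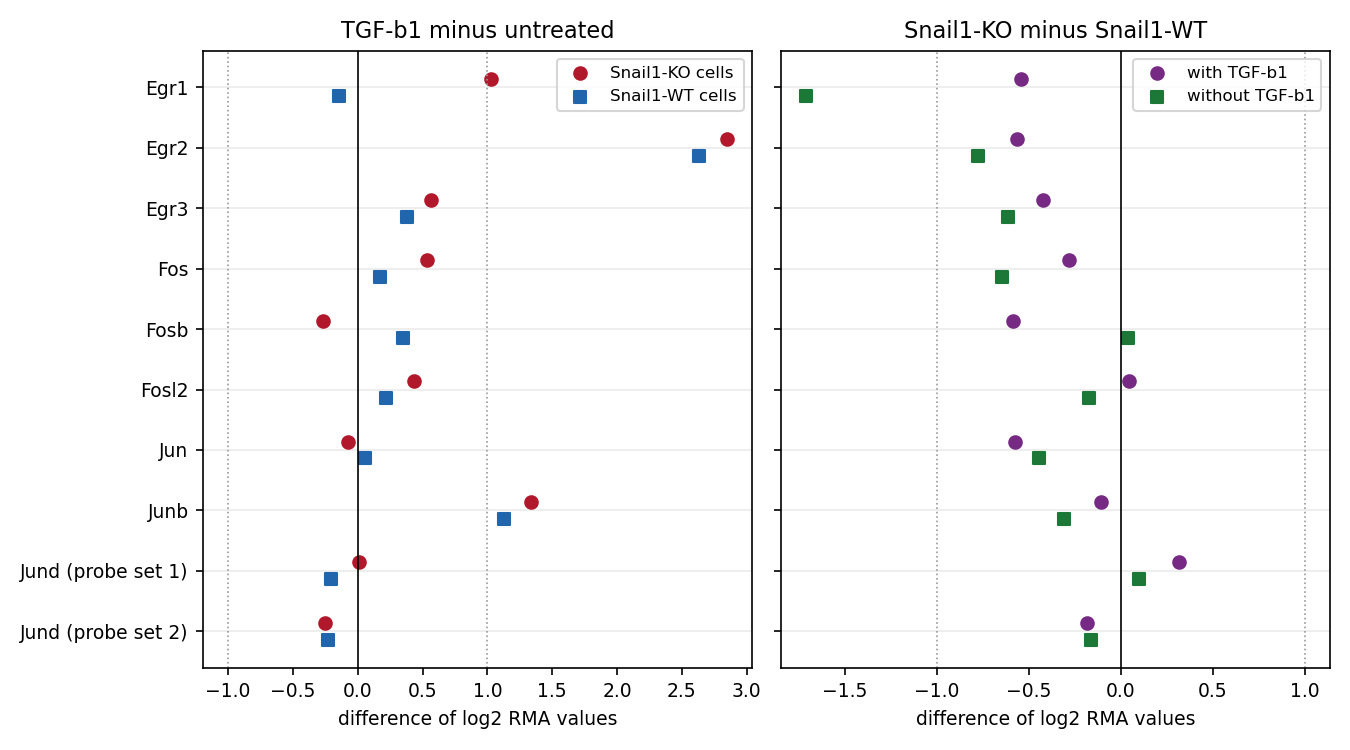
Differences of log2 RMA values for each probe set of the 9 genes, as TGF-b1 minus untreated (left; circles Snail1-KO, squares Snail1-WT cells) and Snail1-KO minus Snail1-WT (right; circles with TGF-b1, squares without), with 2-fold differences dotted. The responses of Egr2 reach 2.85 and 2.64, and the untreated genotype difference of Egr1 stands apart at -1.71.

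Before any TGF-b1, most of these genes were lower in Snail1-KO cells. Of the 9, 7 were lower and 2 higher, with a median difference of -0.44, beside 50.04% lower and a median of -0.0003 over all genes kept. All 3 EGR genes were lower. In 1 of the 9, Egr1, the difference was at least 2-fold, and it was lower in Snail1-KO cells. Among all genes kept, 0.744% were at least 2-fold lower and 0.827% at least 2-fold higher. Egr1 differed by -1.71, a 3.28-fold lower level, and ranked 22nd among the decreases. Egr2 differed by -0.78, Fos by -0.64, Egr3 by -0.61, Jun by -0.44 and Junb by -0.31, each larger than its yardstick. Fosl2 differed by -0.17, beyond its yardstick of 0.08 but inside the quartiles of all genes kept, -0.18 and 0.18. Fosb and Jund differed by 0.04 and 0.10, within their yardsticks. Since the yardstick leaves out the spread between cultures, passing it does not set a genotype difference apart from those of other genes. Junb, for one, ranked 1767 among the decreases. The second Jund probe set gave -0.16.

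With TGF-b1 on both sides, 7 of the 9 were again lower in Snail1-KO cells, with a median of -0.42, beside 50.4% lower and a median of -0.002 over all genes. None was 2-fold apart, where 0.631% of all genes were 2-fold lower and 1.07% 2-fold higher. Fosb differed by -0.59, Jun by -0.58, Egr2 by -0.56, Egr1 by -0.55 and Egr3 by -0.42. Fos differed by -0.28, beyond its yardstick of 0.21 like those 5, while Junb at -0.11 and Fosl2 at 0.05 lay within theirs. The brighter Jund probe set differed by 0.32, beyond its 0.11, and the dimmer by -0.19, opposite in sign. The 3 EGR genes, Fos and Jun were thus lower in Snail1-KO cells both with and without TGF-b1, in pairs that share no array. Of these, Fos was the dimmest, at 4.70 in untreated Snail1-KO cells, close to the array median. The loss of Snail1 and any other difference between the 2 cell populations cannot be told apart. Each genotype difference also shares 1 array with each response, so these comparisons are not independent of the responses above.

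The responses of both genotypes were compared as the Snail1-KO response minus the Snail1-WT one. This difference was positive for 7 of the 9, with a median of 0.21, beside 53.6% positive and a median of 0.02 over all genes kept. Egr1 was the only one at least 2-fold apart, at 1.17, where 0.105% of all genes were at least 2-fold higher and 0.233% 2-fold lower. It ranked 10th among all genes kept, and the spread of this quantity at its level was 0.16. Its size rests on the untreated Snail1-KO array, which also gives the low untreated Egr1 level above, so the 2 values are not independent. On that array the summed level of 12 haematopoietic markers was also the highest, at 54.1. It was 51.6 in Snail1-KO cells with TGF-b1, 52.8 in Snail1-WT cells with TGF-b1 and 51.4 in untreated Snail1-WT cells. The summed level of 7 epithelial markers was highest there too, at 32.2, against values between 31.4 and 32.0 on the other arrays. That of 8 endothelial markers was lowest there, at 33.9. Without TGF-b1, 10 of the 12 haematopoietic markers were higher in Snail1-KO than in Snail1-WT cells. Their median difference over all 12 was 0.29, led by Gata1 at 0.73, Cd14 at 0.42 and Cd79a at 0.41. Over all genes kept 49.96% were higher in that comparison, with a median of -0.0003. The defining marker Ptprc was among the 10 at 0.33, and lay between 3.15 and 3.78 on the 4 arrays, below their medians. Only 4 of the 12 were among the genes kept, and Gata1, Cd79a and Ptprc were not. The 12 markers were not set beside other genes of like low level. With TGF-b1 the direction turned, with 10 of the 12 lower in Snail1-KO cells and a median difference of -0.19. Over all genes kept 50.4% were then lower, with a median of -0.002. Gata1 then gave -0.19 and Cd79a -0.06, while Cd14 gave 0.59 and Ptprc 0.36. On the untreated Snail1-KO array 4 of the 12 lay above the array median (Cd14, Cd68, Csf1r and Gata1), against 3 in Snail1-KO cells with TGF-b1, 5 in Snail1-WT cells with TGF-b1 and 3 in untreated Snail1-WT cells. The part of these markers in the result was not tested. Fos followed at 0.36 with a spread of 0.29, and Fosb stood at the other end at -0.62 with a spread of 0.32. For Egr2, Egr3, Fosl2, Junb and Jund the difference lay between 0.19 and 0.22. Jun gave -0.14. The difference between the genotypes was not tested for any of them.

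**Figure D3:**
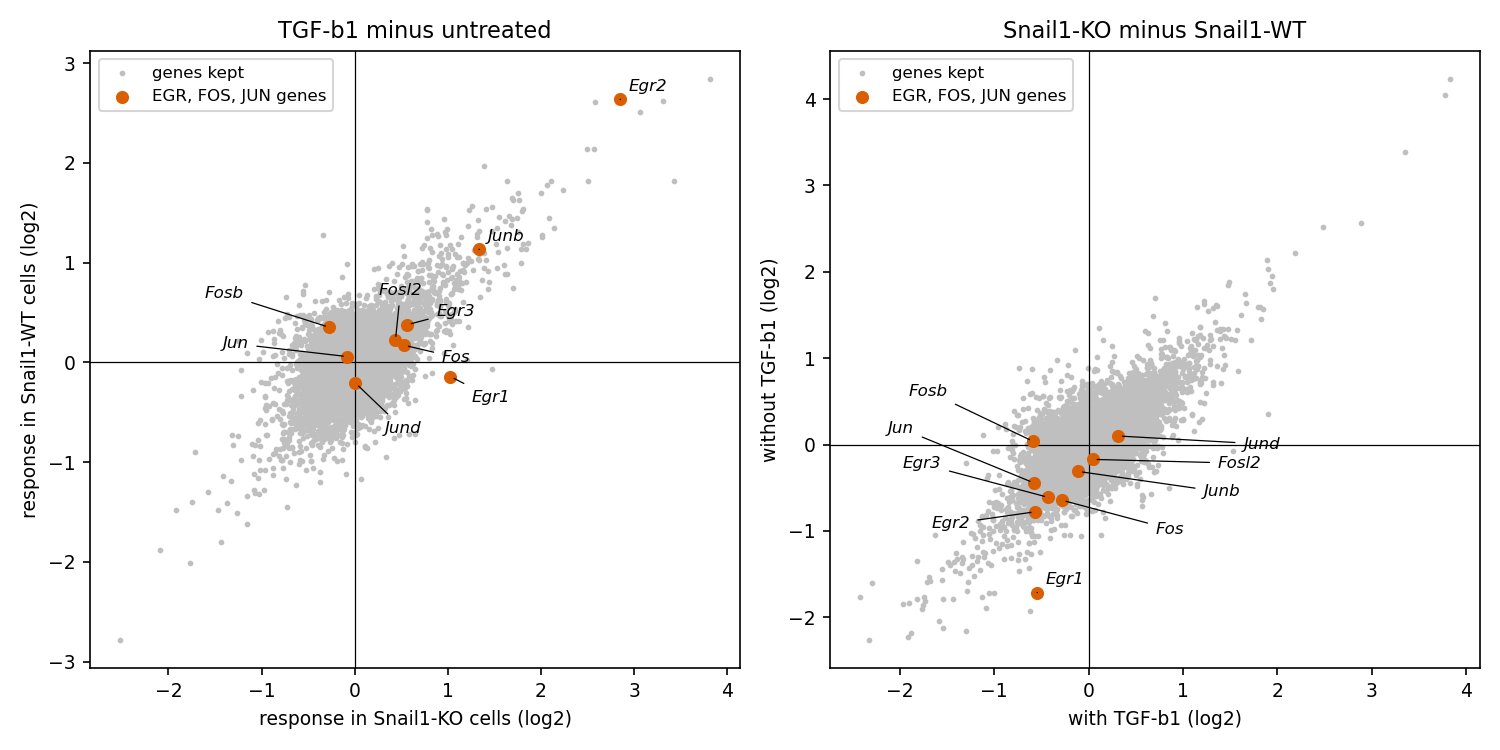
The 9 genes (orange) among the 13308 genes kept (grey), by their response to TGF-b1 in Snail1-KO cells (left, horizontal axis) and Snail1-WT cells (left, vertical axis), and by the genotype difference with TGF-b1 (right, horizontal axis) and without (right, vertical axis), in log2 units. Egr2 and Junb lie in the upper right of the left panel at 2.85 and 2.64 and at 1.33 and 1.13, and Egr1 lies off the diagonal in both panels.

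The arrays on which these genes reached their extremes were unevenly spread. The untreated Snail1-KO array was the lowest of the 4 for 6 of the 9 genes, as it was for 25.7% of all genes kept. Snail1-WT cells with TGF-b1 gave the highest value for 6 of the 9, beside 24.9% of all genes. Fosl2 and the brighter Jund probe set peaked in Snail1-KO cells with TGF-b1 and Egr1 in untreated Snail1-WT cells. Fosl2 was only 0.05 higher there than in Snail1-WT cells with TGF-b1, within its yardstick of 0.08. The dimmer Jund probe set was highest in untreated Snail1-WT cells, at 6.67, and lowest in Snail1-KO cells with TGF-b1, at 6.25.

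Among themselves the genes followed a few shapes over the 4 arrays. The distance between 2 genes was taken as the Euclidean distance between their log2 values, each centred on its own mean. Egr3 and Fos were the closest, at 0.157, and Fosb and Jun followed at 0.343. Egr2 stood farthest from each of the others, with Junb nearest at 1.58 and Jund farthest at 2.97. The search for the nearest of the remaining genes kept left out predicted genes, clones, pseudogenes, small RNAs and olfactory or vomeronasal receptors. Among the others, those nearest to Egr2 were the hyaluronan synthase gene Has2 (0.298), the EGF receptor ligand gene Hbegf (0.429) and Pmepa1 (0.476), an inhibitor of SMAD signalling. Those nearest to Junb were Ltbp2, a latent TGF-b binding protein relative (0.0629), Lrig3 (0.132) and the forkhead gene Foxf2 (0.142). Fos was nearest to the ceramide kinase gene Cerk (0.0372), the FGF receptor gene Fgfr2 (0.0508) and the transcription factor gene Ebf2 (0.0513). For Egr1 the nearest were Unc93a (0.306), the tRNA methyltransferase subunit gene Trmt61a (0.346) and the fibrillin gene Fbn2 (0.408). With 4 arrays such a distance is a description only.

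Partners and upstream factors of these genes were described in the same way. Of 4 EGR partners none was 2-fold apart in any comparison. Over all genes kept, 0.105% to 1.07% were 2-fold apart per comparison and direction, so most lists this short would have none. Nab2, whose protein represses EGR factors, measured 9.44 with TGF-b1 and 9.89 without in Snail1-KO cells, against 10.03 with and 10.28 without in Snail1-WT cells, lower after TGF-b1 in both genotypes. Egr4, the remaining EGR gene, gave responses of -0.19 in Snail1-KO cells and 0.41 in Snail1-WT cells. Of 14 measured AP-1 partners none was 2-fold higher, and 1 was 2-fold lower in the response of Snail1-KO cells, the large MAF gene Maf at -1.22. Over all genes kept 0.308% were 2-fold lower in that response. Maf gave -0.98 in Snail1-WT cells, and its second probe set -0.69 and -1.002. The small MAF genes Mafk (0.82 and 0.50) and Maff (0.46 and 0.57) were higher, as was Atf3 in untreated Snail1-KO over Snail1-WT cells, at 0.66.

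Serum response factor and its co-factors, 7 genes, had median responses of 0.14 in both genotypes with none 2-fold apart. Elk3, an ETS partner of serum response factor that can repress Fos, gave the largest responses, 0.78 in Snail1-KO cells and 0.62 in Snail1-WT cells. Srf itself gave 0.46 and 0.25. Of 14 measured MAP kinase pathway genes none was 2-fold apart in any comparison, and the median responses were 0.08 and 0.04. The median responses over all genes kept were -0.02 and -0.03. Only 0.105% to 1.07% of all genes kept were 2-fold apart per comparison and direction. Having none is therefore not particular to lists as short as these. Map2k6, an activator of p38, gave -0.64 and -0.55, while Map2k3, with a like role, differed between genotypes by -0.63 with and -0.53 without TGF-b1. RNA levels of kinases do not report their activity.

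Other immediate early genes, 36 in all, had median responses of 0.40 in Snail1-KO cells and 0.28 in Snail1-WT cells. In Snail1-KO cells 7 were at least 2-fold higher and 1 lower, and in Snail1-WT cells 4 were higher and 1 lower. As background, 0.999% of the genes kept rose at least 2-fold in the Snail1-KO response and 0.714% in the Snail1-WT response. Falls of that size made up 0.308% and 0.271%, and the medians of all genes kept were -0.02 and -0.03, in the same order. The matricellular gene Ccn2 gave 3.82 in Snail1-KO cells and 2.84 in Snail1-WT cells, but its dimmer second probe set gave 0.35 and 1.06. The survival gene Ier3 gave 1.52 and 1.34, and the stress gene Gadd45b 1.62 and 0.89. Dusp1, which encodes a MAP kinase phosphatase, was the 1 lower gene in both genotypes, at -1.26 and -1.51. Klf10 and Dusp5, named after their values were seen, completed the 4 in Snail1-WT cells at 1.32 and 1.30. Without TGF-b1 the list had a genotype median of -0.29, with 26 of 36 genes lower in Snail1-KO cells and 2 of them at least 2-fold, Ccn2 at -1.06 and Errfi1 at -1.03. The dimmer Ccn2 probe set gave 0.77 there, opposite in sign. Over all genes kept 50.04% were lower without TGF-b1, 0.744% at least 2-fold, with a median of -0.0003. With TGF-b1 the median of the list was -0.05, and Klf4 at 1.20 and Dusp5 at -1.002 were 2-fold apart. There 1.07% of all genes kept were 2-fold higher and 0.631% lower, with a median of -0.002. Errfi1, Klf4 and Dusp5 were named here after their values were seen.

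Genes known as targets of AP-1 or EGR factors, of which 27 of 31 listed were measured and 1, Nab2, is also among the EGR partners, had median responses of 0.36 in Snail1-KO cells and 0.34 in Snail1-WT cells. In Snail1-KO cells 3 were at least 2-fold higher: Hbegf at 2.50, the cytokine gene Il6 at 2.24 and the angiogenic factor gene Vegfa at 1.23. These gave 2.14, 1.73 and 1.53 in Snail1-WT cells, where 6 genes were at least 2-fold higher. None of the list was 2-fold lower in either response. Over all genes kept 0.999% were 2-fold higher in Snail1-KO cells and 0.714% in Snail1-WT cells, with median responses of -0.02 and -0.03. Il6 measured 4.43 in untreated Snail1-KO cells, below the lowest mean kept, 4.51, and such dim values make a fold change imprecise. In the genotype comparison the medians were -0.36 both with and without TGF-b1, and 20 and 19 of 27 genes were lower in Snail1-KO cells. Only 24 of the 27 were among the genes kept. The median with TGF-b1 was the value of Dmp1 and that without TGF-b1 the value of Mmp1a, neither of them kept. Over all genes kept 50.4% were lower with and 50.04% without TGF-b1, and 0.631% and 0.744% at least 2-fold. The stromelysin gene Mmp3 was the 1 gene of the list at least 2-fold lower, at -1.75 with and -1.85 without TGF-b1. It measured 3.93 and 3.96 in Snail1-KO cells, below 4.51. Many of these targets also answer to SMAD or other factors, so the medians do not measure the activity of AP-1 or EGR proteins.

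**Figure D4:**
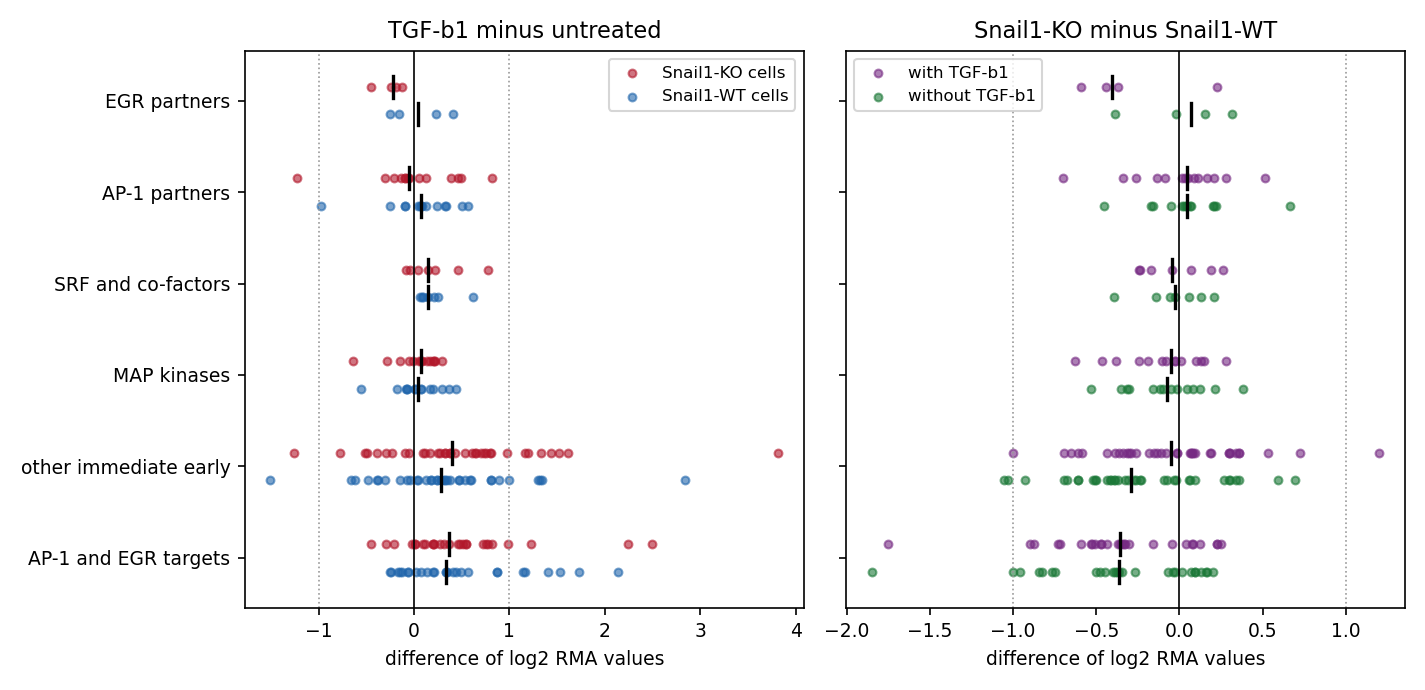
Differences of log2 RMA values for the measured genes of 6 lists of partners, upstream factors, other immediate early genes and targets, as TGF-b1 minus untreated (left; Snail1-KO above Snail1-WT cells) and Snail1-KO minus Snail1-WT (right; with TGF-b1 above without). Each point is a gene, black bars are medians and dotted lines mark 2-fold; the other immediate early genes reach 3.82 (Ccn2) in the responses, while partners and upstream factors lie mostly within 1 log2 unit.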

How the data were processed

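The deposited values of 4 arrays were log2 values. Per the submitters' processing notes, the authors used RMA and R 3.1.1. Since RMA gives all arrays like distributions, a shift of most genes in one direction would be removed. Per the labels' protocols, total RNA was labelled with the Affymetrix WT PLUS kit (genome build: not given in the sources used here). Groups came from the sample descriptions and gene names from GEO's platform table. Of 41345 probe sets, 23521 had 1 symbol, 1814 several and 16010 none here. Of 22180 genes, 1082 had over 1 probe set, and the one with the highest mean stood for the gene. Differences of log2 values were computed per gene, and those of at least 2-fold were counted among the upper 60% of genes by mean level. Alternatives were a 1.5-fold threshold, the mean of all probe sets, median centring, cyclic loess (limma 3.58.1 in R 4.3.3), no filter and the upper 40%. Counting and spread were tested on simulated data. Python 3.11.15, numpy 2.4.6, pandas 2.3.3 and matplotlib 3.10.9 were used.

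The genes, lists, motifs and naming rule were chosen with earlier results of these data known. The rule named all 9 genes, the 3 nearest genes of Egr1, Egr2 and the FOS and JUN gene with the widest range, Snai1, and up to 4 list members with the largest difference. Predicted genes, clones, pseudogenes, small RNAs and olfactory or vomeronasal receptors were not named and did not enter the ranking of nearest genes. Promoter windows were read from a RefSeq table of GRCm38.p6, and motifs were searched on both strands.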

Additional observations from a re-analysis of the deposited data

Results flagged for a closer look

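The responses to TGF-b1 had opposite signs in the genotypes for 4 of the 9 genes (44.4%), beside 32.5% of the 13308 genes kept. The count rests on Jund, whose response in Snail1-KO cells was close to 0. With cyclic loess that response was -0.0063 and with the mean of both probe sets -0.12, which left 3 of the 9 genes (33.3%), beside 32.6% and 32.7% of all genes. With 1 array per group the differences were not tested. Egr1 was higher after TGF-b1 in Snail1-KO cells (1.03) and slightly lower in Snail1-WT cells (-0.14), a difference of 1.17 beside a spread of 0.16 at its level. Fosb was opposite, at -0.27 in Snail1-KO cells and 0.35 in Snail1-WT cells, a difference of -0.62 beside a spread of 0.32. For Jun the difference was -0.14, with responses of -0.08 in Snail1-KO and 0.06 in Snail1-WT cells, beside 0.12. For Jund it was 0.22, with responses of 0.01 in Snail1-KO and -0.21 in Snail1-WT cells, beside 0.15, and the second Jund probe set gave -0.02.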

How the results depend on the processing

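Only 3 of the 6 alternatives can move the difference of a single gene, since the thresholds and filters leave it as it is. The mean of all probe sets can move only Jund, and moved 3 of its differences by more than their yardstick, to -0.12 for the response in Snail1-KO cells, 0.06 for the genotype difference with TGF-b1 and -0.03 without. Median centring moved the 45 differences of the 9 genes by at most 0.0501 and cyclic loess by at most 0.0545, each by less than its yardstick. With a 1.5-fold threshold, 1 of the 9 genes was lower in Snail1-KO cells with TGF-b1 and 4 without, and 1 had a smaller response in Snail1-KO cells. Over all genes that threshold gave 441 higher and 243 lower in the Snail1-KO response and 330 and 251 in the Snail1-WT response, 684 and 399 in the genotype difference with TGF-b1, 534 and 417 without, and 214 and 262 in the difference of the responses. At 2-fold these counts were 133 and 41, 95 and 36, 142 and 84, 110 and 99, and 14 and 31. With no filter on low levels the difference of the responses had 89 and 108 genes, and in the upper 40% of genes 3 and 1, fewer genes being tested. There the genotype difference with TGF-b1 had 93 higher genes. The cause of these shifts was not tested otherwise. The number of arrays, 1 per group, limits every value.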
